A study of Mus musculus with 2 samples.

Results

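Among induced myogenic progenitor cells in culture, the cells described here carried RNA of Pax7, the transcription factor that marks muscle stem cells, and were low in RNA of proliferation genes. Their number was 891 of the 15861 cell barcodes deposited in 2 single-cell libraries, with 317 of 8191 in the MyoD-WT library and 574 of 7670 in the MyoD-KO library. A cell was first kept if it had at least 1000 genes and at most 15% mitochondrial UMIs, a UMI (unique molecular identifier) being 1 counted RNA molecule. It was a Pax7 cell if it had at least 1 Pax7 UMI, at most 1 Myog UMI, and under 0.5% of its UMIs on the sarcomere genes Acta1, Actc1, Myh3, Mylpf and Myl1. It was a low-proliferation Pax7 cell if Mki67 and Top2a together had fewer than 0.5 UMIs in 10000 and if it was not among the 25% of the Pax7 cells of its library that were highest in Cdc6, Ung, Ccne2, Hells and Orc1, genes of DNA replication. These measured values chose the cells. Every difference between these cells and the other Pax7 cells of the same library is therefore given as a description, with no test.

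The study asked how Myf6, a muscle transcription factor, takes part in converting fibroblasts to muscle progenitors. Mouse embryonic fibroblasts, MyoD-WT or MyoD-KO and both of the strain entry Myod1tm1Jae, had been given Myf6 by overexpression together with Forskolin, RepSox and CHIR99021 (F/R/C). Colonies no longer dependent on that Myf6 were picked, and 1 clone of each genotype was taken at passage 4, still in F/R/C medium with serum, serum replacement and bFGF. Forskolin raises cyclic AMP, RepSox blocks the TGF-beta type I receptor, and CHIR99021 blocks GSK3. Each genotype was thus 1 clone and 1 library, so clone, library and genotype cannot be told apart. No p-value is given between them, because cells of 1 clone are not replicates.

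Pax7 cells of adult muscle rest outside the cell cycle and re-enter it after injury. Their daughters divide, switch on Myod1, then either leave the cycle to form fibres or return to rest with Pax7 kept. Cdkn1c encodes p57, an inhibitor of cyclin-dependent kinases, Btg2 encodes an antiproliferative protein, and Heyl is a target of Notch signalling, the pathway that holds muscle stem cells in the resting state. Cells between divisions also have little Mki67 and Top2a RNA, since both genes are expressed mainly from S phase to mitosis, so a low level at one moment does not by itself separate rest from G1 phase.

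Low-proliferation cells were 8.01% of the 3959 MyoD-WT Pax7 cells (exact 95% binomial interval 7.18 to 8.90) and 21.9% of the 2623 MyoD-KO Pax7 cells (20.3 to 23.5). Intervals here cover counting error only. The remaining 3642 and 2049 Pax7 cells are the comparison group, called the other Pax7 cells. Low-proliferation cells were shallower, with a median of 25251 UMIs against 35724 in MyoD-WT and 30806.5 against 40402 in MyoD-KO. The limit on Mki67 and Top2a lets a cell of up to 20000 UMIs hold none, one of up to 40000 hold 1 UMI, and a deeper one hold more. In MyoD-WT 213 of the low-proliferation cells had none and 104 had some, and in MyoD-KO 384 had none and 190 had some. The number of UMIs allowed thus changes in steps with depth, so depth enters the choice of cells. The libraries shared 14 barcodes, and 1 of them was a low-proliferation cell, in MyoD-KO. No doublets were removed. The 6% of kept cells with the highest doublet scores included 0 of the 317 and 5 of the 574 low-proliferation cells, against 78 and 80 of the other Pax7 cells.

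Levels below are the summed UMIs of a gene in a group per 1000000 UMIs of that group (CPM). The genes of the rule behaved as the rule requires. Mki67, a marker of dividing cells, was at 6.21 in MyoD-WT low-proliferation cells against 185 in the other Pax7 cells, and at 3.17 against 271 in MyoD-KO. Top2a, the topoisomerase of dividing cells, was at 7.08 against 497 and at 7.78 against 523. Pax7 itself (ENSMUSG00000028736) was at 145 CPM (95% interval 137 to 154) in the MyoD-WT cells, 0.901 times its level in the other Pax7 cells. In MyoD-KO it was at 173 (167 to 179), 0.821 times the other Pax7 cells. The median low-proliferation cell held 3 Pax7 UMIs in MyoD-WT and 4 in MyoD-KO, against 5 and 7.

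The 3 markers proposed for these cells went different ways in the 2 clones. Cdkn1c (ENSMUSG00000037664) was at 1121 CPM (1098 to 1144) in MyoD-WT low-proliferation cells and at 392 (389 to 396) in the other Pax7 cells, a ratio of 2.86 (2.79 to 2.92). In MyoD-KO it was at 2010 (1990 to 2031) against 2770 (2759 to 2781), a ratio of 0.726 (0.718 to 0.734). The MyoD-KO low-proliferation cells thus had more Cdkn1c RNA than their MyoD-WT counterparts, but less than the other Pax7 cells of their own clone. Btg2 (ENSMUSG00000020423) was the marker higher in both, at 51.8 (46.9 to 57.0) against 17.3 in MyoD-WT and at 232 (225 to 239) against 169 in MyoD-KO. Its ratios were 2.99 (2.69 to 3.32) and 1.37 (1.32 to 1.41). Heyl (ENSMUSG00000032744) was at 30.5 (26.8 to 34.6) against 20.5 in MyoD-WT, a ratio of 1.49. In MyoD-KO Heyl was at 91.4 (87.1 to 95.8) against 102, a ratio of 0.898. Of the 3 markers, then, Btg2 alone was higher than in the other Pax7 cells of MyoD-KO, so the cells are called by the rule and not by a resting state. Among cells of 20000 to 30000 UMIs the MyoD-KO Btg2 levels were closer, at 214 against 184.

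**Figure D1:**
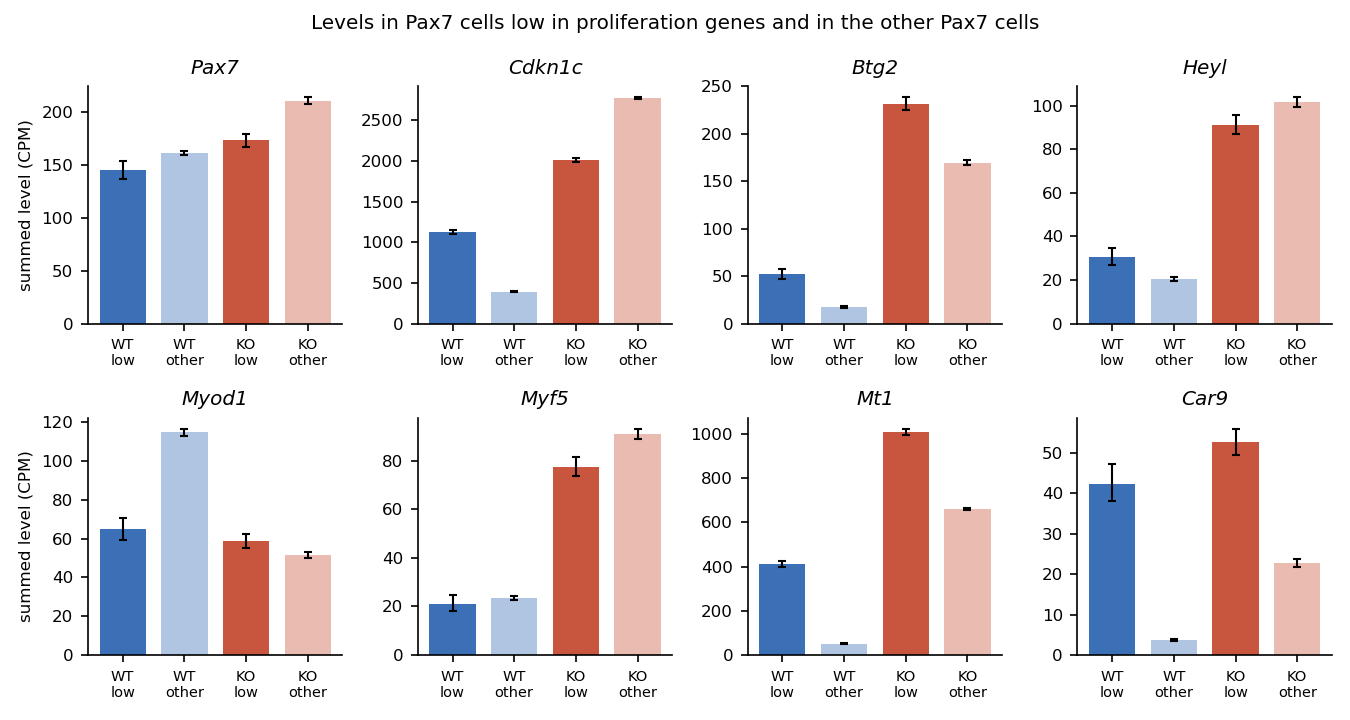
Levels in CPM of genes including Pax7, Cdkn1c, Btg2, Heyl, Myod1, Mt1 and Car9, for low-proliferation and other Pax7 cells of each library (1 library per clone, with exact 95% Poisson intervals of the summed UMIs). Cdkn1c is higher in the low-proliferation cells of MyoD-WT (1121 against 392) and lower in those of MyoD-KO (2010 against 2770).

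Single cells spread widely around these sums. In MyoD-WT low-proliferation cells the quartiles of Cdkn1c were 163, 749 and 1451 CPM, and the highest cell reached 7905. In the other MyoD-WT Pax7 cells the quartiles were 59.1, 208 and 528. In MyoD-KO low-proliferation cells the quartiles of Cdkn1c were 49.0, 883 and 3940, with a highest cell of 12538, against 689, 2381 and 4489 in the other Pax7 cells. The lower quartile of the MyoD-KO low-proliferation cells was thus below that of every other group. Cells under 100 CPM of Cdkn1c were 203 of the 574 MyoD-KO low-proliferation cells (35.4%) and 7.17% of the other Pax7 cells. In MyoD-WT they were 68 of 317 (21.5%) and 35.0%.

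After each cell was thinned to 5000 UMIs, the shares of cells with a UMI moved like the sums. Cdkn1c was found in 76.8% of MyoD-WT low-proliferation cells and 59.6% of other Pax7 cells, and in 66.1% and 90.5% in MyoD-KO. Without thinning, Cdkn1c shares were 89.9% and 89.3% in MyoD-WT and 88.3% and 99.0% in MyoD-KO. Btg2 was found in 23.2% and 8.20% in MyoD-WT and in 59.3% and 49.2% in MyoD-KO (unthinned 53.6% and 37.1%, then 91.1% and 91.2%). Heyl was found in 11.8% and 9.39% in MyoD-WT and in 33.0% and 36.5% in MyoD-KO (unthinned 47.6% and 45.4%, then 73.0% and 88.5%). In the most differentiated cells, with at least 5% of their UMIs on the 5 sarcomere genes, Heyl was found in 0% of MyoD-WT and 2.40% of MyoD-KO cells and Pax7 in 2.59% and 2.58%. Those shares are a guide to free RNA for Heyl and Pax7. For Cdkn1c (62.1% and 71.8%) and Btg2 (22.4% and 17.2%) the differentiated cells are no such guide, because neither gene is restricted to progenitors. Cells with a UMI of Cdkn1c, Btg2 and Heyl together were 10 of 314 (3.18%, 1.54 to 5.78) low-proliferation cells in MyoD-WT and 0.523% of the other Pax7 cells. In MyoD-KO they were 88 of 573 (15.4%) and 16.8%.

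In MyoD-WT, Cdkn1c was highest in the Pax7 cells with the least Mki67 and Top2a RNA. Ordered by Mki67 and Top2a UMIs in 10000 (none, under 0.5, under 2, under 5, under 10, then 10 or more), MyoD-WT Pax7 cells held Cdkn1c at 1226, 848, 430, 352, 354 and 447 CPM. The groups differ in width and rest on 2 genes of the rule, so the steps between them do not place a break at the limit of 0.5. Levels beyond 2 differed less. Btg2 went from 52.6 in the cells with none to 35.2, 24.4 and 15.9 in the next 3 groups and was at 16.3 in the last. Myod1 went the other way, from 67.0 and 68.0 in the first 2 groups to 126 and 122 in the last 2. In MyoD-KO, Cdkn1c was at 2165, 2534, 3039, 2464, 2478 and 2803 in the same order, lowest where Mki67 and Top2a were absent. Among MyoD-KO cells under 1000 CPM of Spp1, a group described below, the order gave 3471, 3217, 3202, 2671, 2718 and 3061, highest where they were absent. Median depth rose along the order, from 24879.5 UMIs in the first MyoD-WT group, and its part in these levels was not tested. Just outside the limit, at 0.5 to 1 UMIs in 10000 and within the S phase limit, 99 MyoD-WT cells held Cdkn1c at 601 and 167 MyoD-KO cells at 2905. Just inside it, above 0 and under 0.5, the values were 906 and 2320, and in the cells with none they were 1238 and 1846.

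**Figure D2:**
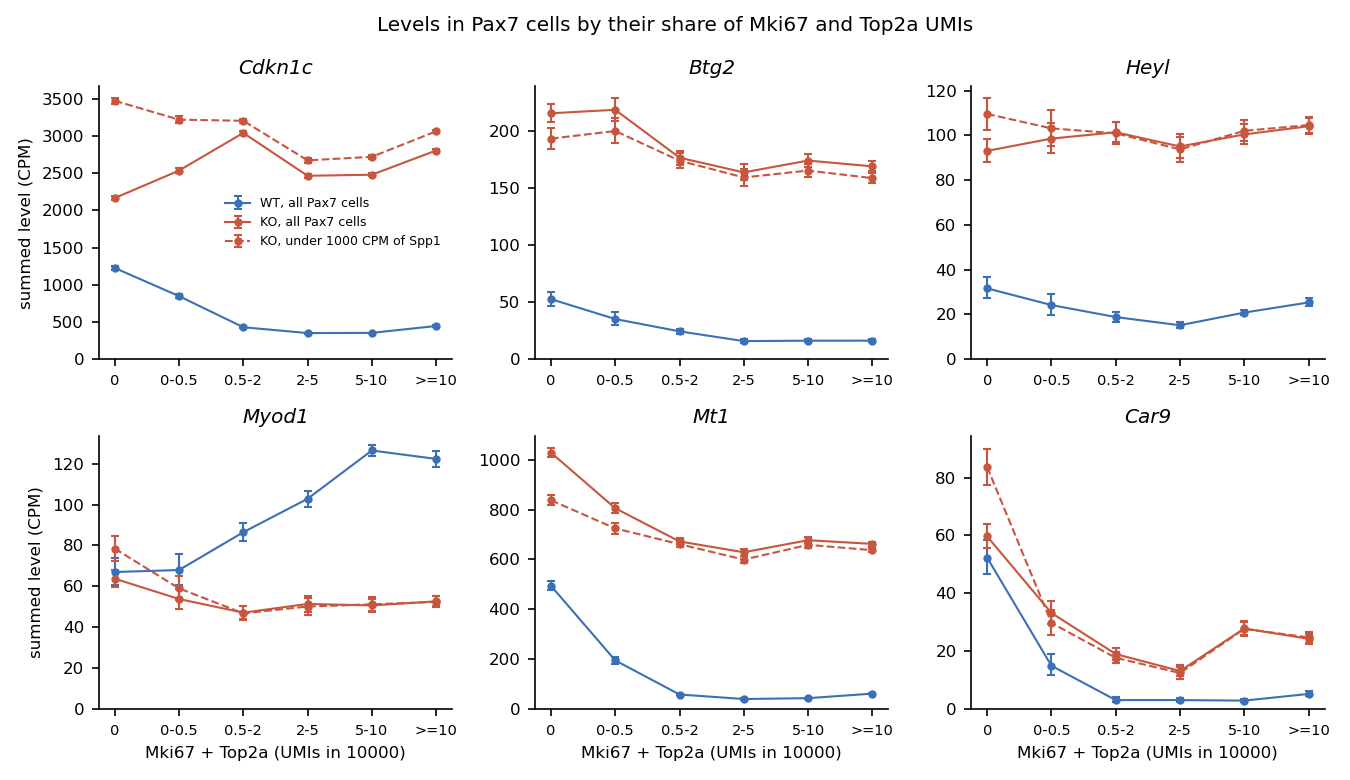
Levels in CPM of genes in all Pax7 cells grouped by Mki67 and Top2a UMIs in 10000, for MyoD-WT and MyoD-KO (1 library each, bars are exact 95% Poisson intervals). MyoD-WT Cdkn1c falls from 1226 in cells with none to 352 in the fourth group, while MyoD-KO Cdkn1c is lowest, at 2165, in cells with none, but highest there, at 3471, among cells under 1000 CPM of Spp1.

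Pax7 cells low in Mki67 and Top2a but high in S phase genes were few, 87 in MyoD-WT and 104 in MyoD-KO, and stood among the other Pax7 cells by the rule. Cdkn1c was at 861 in those MyoD-WT cells and at 3889 in those MyoD-KO cells. These cells thus held more Cdkn1c than the average of the other Pax7 cells in both libraries.

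The MyoD-KO low-proliferation cells were a mixture of cells with and without high Spp1, which encodes the secreted protein osteopontin. Cells with at least 1000 CPM of Spp1 were 195 of the 574 (34.0%) but 204 of the 2049 other MyoD-KO Pax7 cells (9.96%). In MyoD-WT they were 11 of 317 (3.47%) and 17 of 3642 (0.467%). The limit of 1000 was set after the values were seen, and 71 MyoD-KO low-proliferation cells lay between 500 and 2000. Among the MyoD-KO low-proliferation cells, those at or above the limit held Cdkn1c at 217 and those below it at 3126. The former held Pax7 at 100, Myf5 (a muscle determination factor) at 37.6 and Cdh15 (M-cadherin) at 128, and the latter held them at 218, 102 and 201. The high-Spp1 cells held Slpi (a secreted protease inhibitor) at 5392, Twist2 (a mesenchymal factor) at 150 and Dcn (decorin, a fibroblast matrix protein) at 133, against 27.4, 4.12 and 0.343 below the limit. Of the 203 low-proliferation MyoD-KO cells under 100 CPM of Cdkn1c, 151 were high in Spp1.

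Without the high-Spp1 cells in either group, the MyoD-KO markers lay close to those of the other Pax7 cells. Cdkn1c was at 3126 against 3003, a ratio of 1.04 (1.03 to 1.05), Heyl at 105 against 102, and Pax7 at 218 against 215. Btg2 was at 214 against 162, a ratio of 1.32 (1.27 to 1.38). The 1121 against 392 of MyoD-WT became 1157 against 394. The direction of the MyoD-KO Cdkn1c difference thus rested on the high-Spp1 cells, which held 4.15% of the Cdkn1c UMIs of the low-proliferation cells, whereas the MyoD-WT difference had the same size without them. Whether the high-Spp1 cells are progenitors or fibroblast-like cells with Pax7 RNA was not tested.

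**Figure D3:**
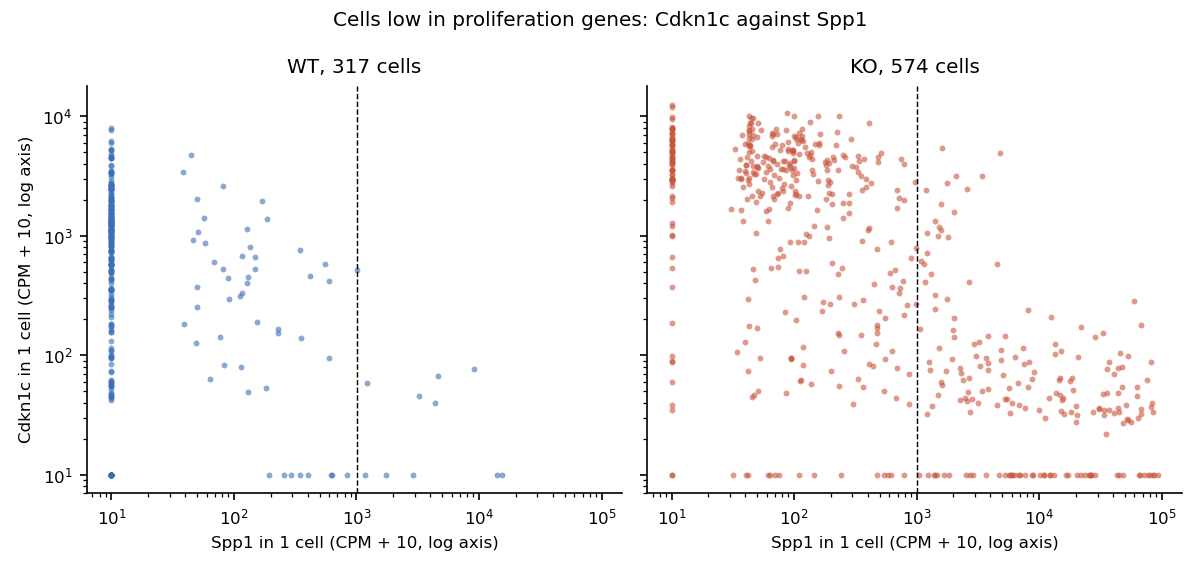
Spp1 against Cdkn1c in every low-proliferation Pax7 cell (1 point per cell, CPM, log axes; 317 MyoD-WT and 574 MyoD-KO cells). In MyoD-KO, 195 cells lie at or above 1000 of Spp1 and most of these have little Cdkn1c.

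Below, a gene is called when its level differed at least 1.5-fold between low-proliferation and other Pax7 cells and the larger level was at least 10 CPM. In MyoD-WT 632 of 8082 genes were higher in low-proliferation cells (7.82%) and 1053 were lower (13%). In MyoD-KO 740 of 8760 were higher (8.45%) and 877 lower (10%). Of 7746 genes tested in both libraries, 270 were higher in both (3.49%) and 605 lower in both (7.81%). The 270 were 42.7% of the MyoD-WT and 36.5% of the MyoD-KO list, and the 605 were 57.5% and 69.0%. Without the high-Spp1 cells, 551 genes were higher (6.85%) and 1050 lower (13.1%) in MyoD-WT, and 286 were higher (3.32%) and 707 lower (8.22%) in MyoD-KO, with 110 higher in both.

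The muscle regulatory factors gave no common pattern. Myod1 (ENSMUSG00000009471), which drives commitment to muscle, was at 64.8 CPM (59.4 to 70.6) in MyoD-WT low-proliferation cells against 115 in the other Pax7 cells, a ratio of 0.564 (0.516 to 0.616). In the library labelled MyoD-KO it was at 58.7 (55.3 to 62.2) against 51.5, a ratio of 1.14. Which part of Myod1 the allele lacks is not stated in the labels, so 3′ tags of Myod1 in that library check neither the label nor the protein. Myf5 was at 21.1 against 23.6 in MyoD-WT and at 77.5 against 91.1 in MyoD-KO. Myf6, the factor used for conversion, was at 0.745 against 0.328 and at 5.03 against 7.19. Pax3, a relative of Pax7, had 0 UMIs in the MyoD-WT low-proliferation cells and was at 4.92 in those of MyoD-KO, at least 13.2-fold higher against a limit of 3 counts. Among 17 muscle regulators tested in MyoD-WT, Meox1 and Dach1 were higher and Myod1 and Eya4 lower. Of 15 in MyoD-KO, only Eya4 was called, at 37.7 against 57.7, beside 57.0 against 145 in MyoD-WT. The shares over all genes tested were 7.82% higher and 13% lower in MyoD-WT, and 8.45% higher and 10% lower in MyoD-KO. Eya4 was at 50.1 against 61.0 in MyoD-KO once the high-Spp1 cells were left out, and was no longer called.

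Among genes at 20 CPM or more in both libraries, Spp1, Ebf1, Gsta4, Tshz2, Slit2, Oaf, Plpp3, Tm4sf1, Hmox1, Hilpda, Lrp1 and Egfr had the largest shared differences upwards. Ebf1, a transcription factor of mesenchymal and blood lineages, was at 53.8 against 6.54 in MyoD-WT and at 190 against 21.1 in MyoD-KO. Gsta4, a detoxifying glutathione transferase, was at 28.8 against 0.963 and at 299 against 36.5. Slit2, a secreted guidance protein, was at 98.1 against 18.6 and at 407 against 90.2. These genes sat largely in the high-Spp1 cells of MyoD-KO, which held 87.7% of the Ebf1, 83.3% of the Gsta4 and 76.5% of the Slit2 UMIs of the low-proliferation cells. In MyoD-WT the 11 high-Spp1 cells held 44.8% of the Ebf1, 59.9% of the Gsta4 and 21.5% of the Slit2 UMIs. The MyoD-WT levels came from few cells, since 10 cells held 84.6% of the Spp1, 88.4% of the Gsta4, 79.0% of the Ebf1 and 35.6% of the Slit2 UMIs. Egfr, the receptor of epidermal growth factor, was at 62.3 against 22.9 and at 122 against 44.1. Hmox1, the heme-degrading enzyme of the oxidative stress response, was at 54.9 against 6.14 and at 58.4 against 18.1, and Hilpda, a lipid droplet protein, at 35.6 against 11.9 and at 77.5 against 23.5.

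**Figure D4:**
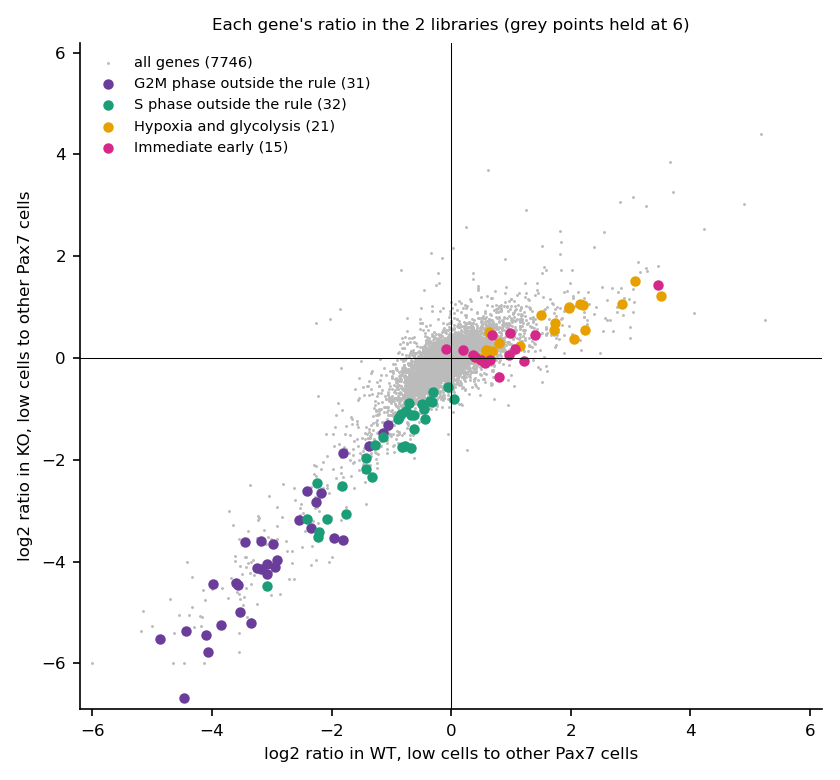
Log2 ratio of low-proliferation to other Pax7 cells for each gene, MyoD-WT on the horizontal and MyoD-KO on the vertical axis, with some genes marked. Ratios beyond the axes are drawn at the edge. Genes of mitosis such as Prc1 and Kif11 lie far below 0 on both axes, and Cdkn1c lies above 0 in MyoD-WT and below 0 in MyoD-KO.

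The lowest genes in both libraries were genes of mitosis, DNA repair and histones, which accompany the genes of the rule. They were Neil3, Cdca2, Aurkb, Kif14, Kif18b, Prc1, Kif11, Nusap1, H2ac24, H1f5, Aspm and Mxd3. Prc1, which bundles microtubules at cytokinesis, was at 7.82 against 183 in MyoD-WT and at 6.35 against 211 in MyoD-KO. Kif11, the motor that separates spindle poles, was at 4.97 against 110 and at 1.00 against 103. H2ac24 was at 42.8 against 890 and at 9.79 against 326, but reads of such near-identical histone genes can be split between copies. All 31 G2M genes outside the rule were lower in both libraries, with median log2 ratios of -3.08 and -4.05 (all genes -0.13 and -0.06). Of 32 S phase genes outside the rule, 24 were lower in MyoD-WT (median -0.83) and 31 in MyoD-KO (median -1.47). Pcna, the replication clamp, was still at 129 against 206 and at 92.2 against 201. None of the 63 genes was higher.

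Promoters are shown for Prc1 and Kif11 because genes of G2 and M phase often carry a cell cycle homology element, TTTGAA, near the start. The stretches are the 100 bases before the RefSeq start on GRCm38.p6, plus strand, with the element in capitals.
Prc1, chr7:80294376-80294475, element 30 bases before the start: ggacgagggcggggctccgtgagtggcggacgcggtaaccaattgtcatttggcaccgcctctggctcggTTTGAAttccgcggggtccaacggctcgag
Kif11, chr19:37376282-37376381, element on the other strand, 19 bases before the start: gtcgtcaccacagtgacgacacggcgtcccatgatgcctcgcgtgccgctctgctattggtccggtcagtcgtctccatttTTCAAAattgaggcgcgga
The element, searched on both strands in windows of 250 bases before to 50 after the start, was in 20 of the 28 G2M genes with a window (71.4%). Of all 27025 symbols, 20.2% had it in at least 1 window. A match describes letters in a window and not a site in use.

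Genes that respond to low oxygen formed the list with the largest shift upwards in MyoD-WT. Of 21 hypoxia and glycolysis genes tested there, 17 were higher in low-proliferation cells and none lower (median log2 ratio 1.72). In MyoD-KO 9 of 21 were higher and none lower (median 0.56), and those 9 were all among the 17. The shares of all genes higher were 7.82% and 8.45%. Without the high-Spp1 cells 19 of 21 were higher in MyoD-WT and 13 of 21 in MyoD-KO, beside 6.85% and 3.32% of all genes. Car9, a carbonic anhydrase induced by low oxygen, was at 42.3 (38.0 to 47.1) against 3.71 in MyoD-WT and at 52.5 (49.3 to 55.9) against 22.7 in MyoD-KO. P4ha2, a collagen prolyl hydroxylase, was at 15.4 against 1.82 and at 24.1 against 8.51. Slc2a1, the glucose transporter GLUT1, was at 52.6 against 11.4 and at 85.2 against 41.6, and Ndrg1, a stress-response gene, at 89.5 against 12.3 and at 67.3 against 32.2. In low-proliferation cells the 2 clones thus had similar levels of Car9, while the other Pax7 cells of MyoD-KO stood above those of MyoD-WT. The metallothioneins Mt1 and Mt2, which bind zinc and were in no list, were also higher in these cells. Mt1 was at 411 against 51.8 in MyoD-WT and at 1009 against 660 in MyoD-KO, and Mt2 at 204 against 31.3 and at 430 against 299. Without high-Spp1 cells and cells with a Car9 UMI, the MyoD-KO levels were close, Mt1 at 612 against 564 and Mt2 at 284 against 270. In MyoD-WT they were then at 179 against 23.3 and at 82.9 against 16.3.

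Promoters of 3 of these genes are shown because they hold the core of the hypoxia response element, ACGTG, which the factor HIF binds. Build, length and strand are as for Prc1, with the core in capitals.
Car9, chr4:43506926-43507025, core on the other strand, 18 bases before the start: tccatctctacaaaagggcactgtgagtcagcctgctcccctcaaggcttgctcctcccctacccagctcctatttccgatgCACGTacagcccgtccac
P4ha2, chr11:54100824-54100923, core 78 bases before the start: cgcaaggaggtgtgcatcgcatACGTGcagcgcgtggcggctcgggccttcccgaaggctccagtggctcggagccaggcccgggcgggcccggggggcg
Slc2a1, chr4:119108645-119108744, core 36 bases before the start: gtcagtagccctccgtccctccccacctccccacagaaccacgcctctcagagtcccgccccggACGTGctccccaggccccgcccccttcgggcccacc
The core was in 16 of the 20 hypoxia and glycolysis genes with a window (80%), in 6 of the 28 G2M genes (21.4%) and in 21.8% of all symbols. In the same way TTTGAA was in 3 of those 20 hypoxia and glycolysis genes (15%). No binding was measured in these libraries.

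The hypoxia genes and Cdkn1c overlapped only in part. A Car9 UMI was found in 111 of the 317 MyoD-WT low-proliferation cells (35.0%) and in 6.32% of the other Pax7 cells, and in 34.3% and 25% in MyoD-KO. Thinned to 5000 UMIs the shares were 16.2% and 1.84%, and 17.3% and 8.41%, with 0% and 3.32% in differentiated cells. The 111 MyoD-WT cells held Cdkn1c at 1565 and Mt1 at 809, and the other 206 held Cdkn1c at 886 and Mt1 at 200. Set against other Pax7 cells with no Car9 UMI, at 370 of Cdkn1c and 24.4 of Mt1, the 206 were still higher in both genes. With no Car9 UMI in either group, 10 of 17 hypoxia genes were higher in MyoD-WT (median 0.79) and 5 of 19 in MyoD-KO (median 0.15). Of all genes in those cells, 598 of 8087 and 831 of 8786 were higher. With the high-Spp1 cells left out as well, 1 was higher and 1 lower of 17 in MyoD-KO, and 10 of 17 were higher in MyoD-WT. The all-gene counts were then 228 higher and 655 lower of 8595 in MyoD-KO, and 449 higher of 7977 in MyoD-WT. In MyoD-KO the 197 low-proliferation cells with a Car9 UMI held Myod1 at 106 and the other 377 at 36.7. With no Car9 UMI in either MyoD-KO group, Myod1 was at 36.7 against 41.0, in place of the ratio of 1.14. Leaving out the high-Spp1 cells as well gave 43.8 against 41.3, so the direction depended on both kinds of cells.

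Cells of like depth gave the same picture for Cdkn1c. Between 20000 and 30000 UMIs there were 224 low-proliferation and 787 other Pax7 cells in MyoD-WT, with Cdkn1c at 1080 against 448, and 233 and 229 in MyoD-KO, with Cdkn1c at 2757 against 3647. Btg2 was at 48.1 against 21.6 in MyoD-WT and at 214 against 184 in MyoD-KO, log2 ratios of 1.15 and 0.22. In all cells those log2 ratios were 1.58 and 0.45. Heyl was at 31.1 against 23.5 and at 114 against 117. Hypoxia genes were higher for 15 of 21 and for 9 of 21. Of all genes in those cells, 503 of 7948 and 687 of 8583 were higher. In MyoD-KO the deeper low-proliferation cells held more Spp1, 2962 at 20000 to 30000 UMIs and 18245 at 40000 to 60000, and less Cdkn1c, 2757 and 796.

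Inhibitors of cyclin-dependent kinases went both ways. The median log2 ratio of the 7 was 0.41 in MyoD-WT and -0.32 in MyoD-KO (-0.09 without the high-Spp1 cells). Of these 7, Cdkn2b (p15) and Cdkn1c were higher in MyoD-WT, and Cdkn2c (p18) and Cdkn2d (p19) lower. In MyoD-KO Cdkn2b was higher, and Cdkn2c and Cdkn2d lower. Of all genes tested, 7.82% were higher and 13% lower in MyoD-WT, and 8.45% higher and 10% lower in MyoD-KO. Cdkn2b was at 14.5 against 3.58 in MyoD-WT and at 113 against 34.2 in MyoD-KO. Cdkn2c was at 14.3 against 27.2 and at 10.7 against 32.5. Cdkn1a (p21) was at 128 against 96.6 and at 397 against 305, short of 1.5-fold in both.

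Genes of the BTG and TOB families, the retinoblastoma family and growth arrest were higher for 9 of 18 in MyoD-WT (median log2 ratio 0.52) and for 1 of 19 in MyoD-KO (median 0.10). The shares of all genes higher were 7.82% and 8.45%. With the high-Spp1 cells left out, 3 of 19 were higher in MyoD-KO, Gadd45a, Gadd45g and Pdcd4, beside 3.32% of all genes. The 9 were Btg2, Foxo1, Ccng2, Gadd45a, Foxo3, Btg1, Gadd45g, Tob2 and Pdcd4. Pdcd4, a translation inhibitor, was the 1 called among all MyoD-KO cells, at 45.9 against 26.8, beside 29.6 against 11.2 in MyoD-WT. Gadd45a, a growth arrest gene, was at 43.4 against 16.2 in MyoD-WT and at 51.7 against 39.3 in MyoD-KO. Foxo1, a transcription factor of resting muscle stem cells, was at 98.0 against 57.8 and at 54.8 against 47.5. Rbl1 (p107), a retinoblastoma relative expressed in dividing cells, was lower in both, at 17.6 against 44.6 and at 13.8 against 39.1.

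Immediate early genes, the first to respond to growth factors and to cell handling, were higher for 9 of 15 in MyoD-WT (median 0.68) and for 4 of 20 in MyoD-KO (median 0.18). Fos was at 33.5 against 14.5 in MyoD-WT and at 106 against 111 in MyoD-KO. Junb was at 54.0 against 25.7 and at 169 against 150. Ier3 was the gene called in both, at 10.9 against 0.999 and at 152 against 56.1. The shares of all genes higher were 7.82% and 8.45%. Among cells of 20000 to 30000 UMIs, 3 of 14 were higher in MyoD-WT, fewer than among cells of all depths. Of all genes in those MyoD-WT cells, 503 of 7948 were higher. Without the high-Spp1 cells 2 of 19 were higher in MyoD-KO, beside 3.32% of all genes.

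Of the G1 cyclins and kinases, 1 of 14 was higher in each library and 6 and 5 were lower. The higher gene was Ccnd2, a D cyclin, at 60.3 against 1.58 in MyoD-WT and at 448 against 269 in MyoD-KO, where it was not called without the high-Spp1 cells and Myc was. In MyoD-WT the Ccnd2 RNA came from few cells: 31 of 317 had a UMI, 10 cells held 86.6% of it and 1 cell held 143 UMIs. E2f7, which represses E2F targets late in S phase, was at 8.44 against 39.1 and at 6.40 against 41.6. Ccnd1, the D cyclin downstream of growth factors, was at 79.2 against 70.7 and at 360 against 293, below the limit in both. None of 19 genes of growth and ribosome synthesis was higher, and 5 in MyoD-WT and 3 in MyoD-KO were lower. Over all genes tested, 13% were lower in MyoD-WT and 10% in MyoD-KO. Nucleolin (Ncl) was at 1212 against 1832 and at 942 against 1407.

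Notch genes stayed mostly within 1.5-fold. In MyoD-WT 3 of 20 were higher (Notch1, Maml3 and Jag2) and 1 was lower (Lfng), with a median of 0.05. In MyoD-KO none of 18 was higher and Hes6 and Nrarp were lower, with a median of -0.18. For all genes tested the shares were 7.82% higher and 13% lower in MyoD-WT, and 8.45% higher and 10% lower in MyoD-KO. Of 19 in MyoD-KO without the high-Spp1 cells, Dll1 (a ligand) was higher and Nrarp lower, with a median of -0.04, and Hes6 was at 66.9 against 90.9. Maml3, a coactivator of the pathway, was at 107 against 31.0 in MyoD-WT and at 410 against 290 in MyoD-KO. Notch1, a receptor, was at 99.6 against 62.0 and at 110 against 130. Nrarp, a target that feeds back on the pathway, was at 8.07 against 7.21 and at 8.30 against 17.7.

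Satellite cell genes, the surface and regulatory genes of muscle stem cells, were called for 2 of 14 in MyoD-WT and 3 of 17 in MyoD-KO. Over all genes tested, 7.82% were higher and 13% lower in MyoD-WT, and 8.45% higher and 10% lower in MyoD-KO. Sdc4 (a heparan sulfate proteoglycan) and Spry1 (an inhibitor of FGF signalling linked to return to rest) were higher in both. Sdc4 was at 54.6 against 30.4 and at 135 against 80.6. Spry1 was at 28.2 against 18.4 and at 26.2 against 16.8. Msc, a bHLH repressor, was at 71.8 against 78.6 in MyoD-WT and was lower in MyoD-KO at 14.3 against 23.7. Sdc4 (90.3 against 69.8) and Msc (21.4 against 26.0) were not called in MyoD-KO without the high-Spp1 cells, and Spry1 and Sox8 were higher. Cdh15 was at 94.4 against 98.0 and at 173 against 217. Calcr, the calcitonin receptor of resting stem cells, was at 15.8 against 14.7 in MyoD-WT and at 0.212 against 0.352 in MyoD-KO. Early differentiation and fusion genes were higher for none of 17 and 18, and Chrna1 and Ttn were lower in MyoD-WT. Ttn, the giant sarcomere protein, was at 37.1 against 65.3 there and at 34.0 against 27.4 in MyoD-KO.

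Matrix genes were higher for 8 of 21 in MyoD-WT (1 lower) and for 9 of 22 in MyoD-KO (0 lower), but for 3 of 21 in MyoD-KO without the high-Spp1 cells and for 4 of 20 in MyoD-WT. Over all genes tested, 7.82% were higher in MyoD-WT and 8.45% in MyoD-KO. Without the high-Spp1 cells those shares were 6.85% and 3.32%. Vcan (versican) was at 97.2 against 46.7 and at 317 against 165. Itga6, a laminin receptor subunit, was at 13.3 against 5.16 and at 81.7 against 47.0. Fn1 (fibronectin) was at 123 against 120 in MyoD-WT and at 1047 against 235 in MyoD-KO. The FGF and IGF list had 3 of 15 and 6 of 17 higher, and in MyoD-KO 2 of 16 without the high-Spp1 cells. The BMP and TGF-beta list had 2 of 18 higher and 3 lower in MyoD-WT, and 5 of 19 higher and 2 lower in MyoD-KO. Of 16 in MyoD-KO without the high-Spp1 cells, 0 were higher and 0 lower. Of p53 targets, 1 of 15 and 1 of 16 were higher, near the share over all genes. Of Wnt genes, none of 9 and 2 of 10 were higher and 2 and 1 lower. None of 16 p53 targets and none of 8 Wnt genes was called in MyoD-KO without the high-Spp1 cells.

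**Figure D5:**
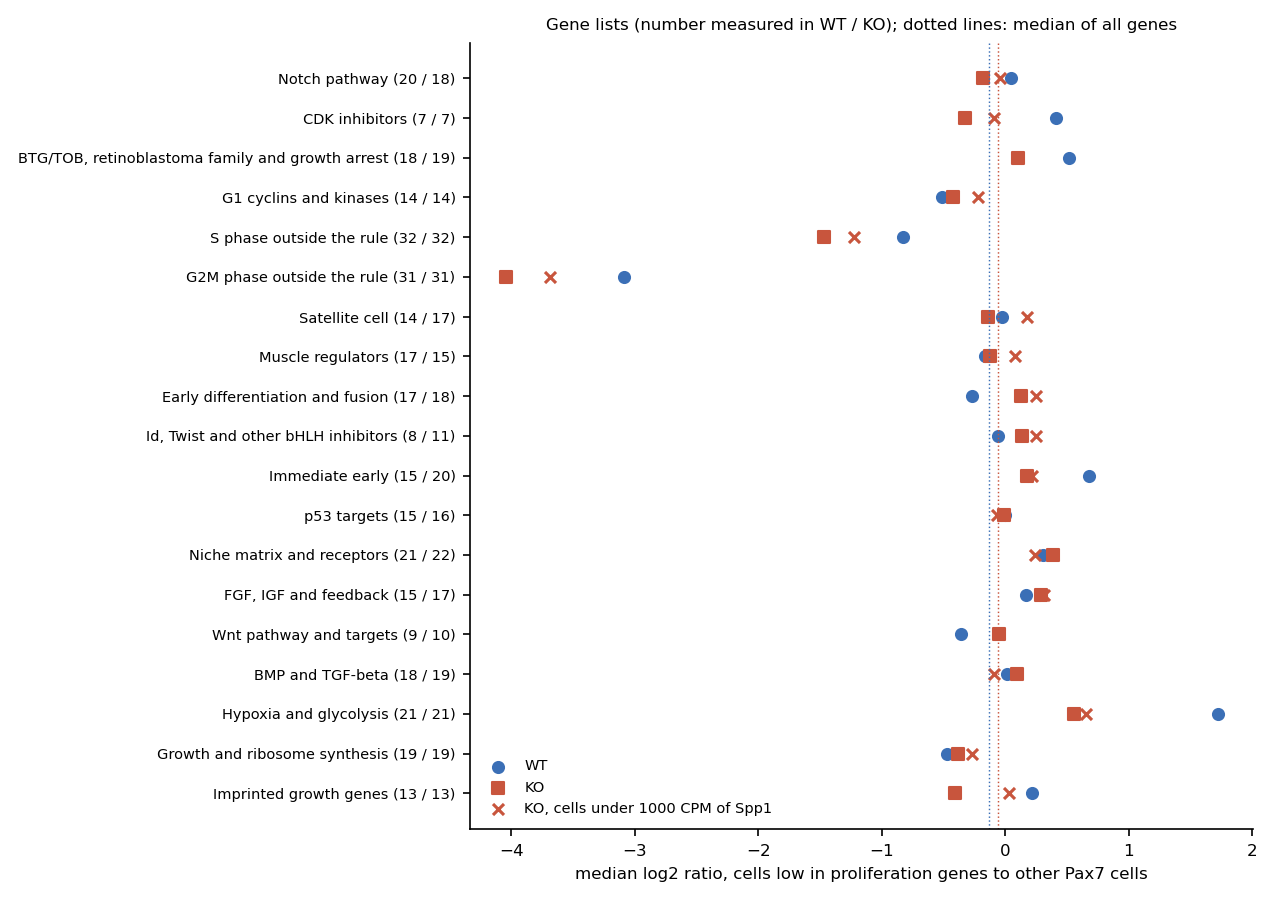
Median log2 ratio of low-proliferation to other Pax7 cells for each gene list, in MyoD-WT, MyoD-KO and MyoD-KO without cells at or above 1000 CPM of Spp1 (1 library per clone). Hypoxia and glycolysis genes lie farthest above 0 in MyoD-WT (1.72) and G2M genes farthest below 0 in every set of cells.

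Between the clones, 1345 of 8653 genes were at least 2-fold higher in MyoD-KO than in MyoD-WT low-proliferation cells (15.5%) and 371 were lower (4.29%), with the higher clone at 10 CPM or more. The median gene was 0.15 higher on the log2 scale in MyoD-KO, and scaling by trimmed mean of M-values (TMM) moved that median by -0.15. With TMM 1116 were higher and 528 lower, so 67.9% in place of 78.4% of the called genes were higher. Many of these genes also differed between the other Pax7 cells of the same 2 libraries: 885 were higher there too (65.8% of the 1345 and 74.8% of the 1183 called there), and 214 lower (57.7% of the 371 and 62.2% of the 344).

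Largest among genes at 50 CPM or more were Crabp1, Prl2c3, Csmd1, Slpi, Serpinb1a, Grem1, Twist2 and Igfbp6 on the MyoD-KO side. Crabp1, which binds retinoic acid, was at 501 in MyoD-KO and had 2 UMIs in MyoD-WT, a ratio of 2020 (counting interval 558 to 16655). Prl2c3, of a family of near-identical prolactin-like genes whose reads can be split, was at 65.8 against 0.124. Csmd1 had 0 UMIs in MyoD-WT and was at 59.8, at least 160-fold higher against 3 counts. Slpi was at 2086 against 12.9, and the high-Spp1 cells held 99.2% of the MyoD-KO UMIs of Slpi, 99.7% of those of Crabp1, 97.6% of those of Grem1 (a BMP antagonist) and 95.8% of those of Twist2. Serpinb1a, an intracellular protease inhibitor, was at 65.1 against 0.497. On the MyoD-WT side stood Alx1, Cntn5, Cpm, Nnat, Grip1, Tnnt1, St6galnac3 and Ryr3. Alx1, a homeobox gene of the head mesenchyme, was at 86.8 in MyoD-WT and had 1 UMI in MyoD-KO. Tnnt1 (slow troponin T) was at 309 against 26.9, Grip1 (a synaptic scaffold) at 517 against 37.1 and Ryr3 (a calcium channel) at 291 against 29.4.

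The markers differed between the clones to unlike extents. Btg2 was 4.47-fold (4.05 to 4.96) and Heyl 2.99-fold (2.62 to 3.43) higher in MyoD-KO low-proliferation cells, against 9.78-fold and 4.97-fold among the other Pax7 cells. Cdkn1c was 1.79-fold (1.75 to 1.84) higher, against 7.06-fold among the other Pax7 cells, and 2.70-fold higher without the high-Spp1 cells. Pax7 was 1.19-fold and Myf5 3.67-fold higher. Myod1 was at 0.905 times MyoD-WT (0.815 to 1.01), against 0.448 among the other Pax7 cells. The low-proliferation cells of the clones were thus closer to each other in Cdkn1c, Btg2 and Myod1 than the other Pax7 cells were. Immediate early genes were higher in MyoD-KO for 15 of 20, against 15.5% of all genes, with Ier3 at 152 against 10.9. Of 16 p53 targets 7 were higher, of 18 satellite cell genes 8 were higher and 2 lower, and of 21 hypoxia genes 1 was higher and 1 lower. Of 23 matrix genes 10 were higher.

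Markers of fibroblasts, smooth muscle, and cartilage and bone were measurable in the low-proliferation cells, and those of 5 other cell types were low. The summed level of each of the endothelial, leukocyte, neural, epithelial and adipocyte lists was between 0.317 and 8.16 CPM. Kdr, Erg, Ptprc, Adgre1, Cd3e, Sox10, Krt5, Krt14, Krt18, Acan, Adipoq and Cidec had 0 UMIs in the low-proliferation cells of both clones. The 10 fibroblast markers summed to 203 in MyoD-WT low-proliferation cells and 106 in the other Pax7 cells, and to 940 and 567 in MyoD-KO. Without the high-Spp1 cells the fibroblast sums of MyoD-KO were 657 and 545. The smooth muscle markers summed to 572 and 854 in MyoD-WT and to 110 and 191 in MyoD-KO, and the cartilage and bone markers to 85.0 and 35.5 and to 115 and 53.3. Most of the latter was Sox9, a transcription factor of cartilage and of other progenitors, at 80.4 against 33.0 in MyoD-WT and at 61.4 against 27.4 in MyoD-KO, above 1.5-fold in both. The part of these transcripts in the results was not tested.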

How the data were processed

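Single-cell RNA was measured in 1 MyoD-WT and 1 MyoD-KO library. The matrices hold raw UMI counts for each gene in each cell, as deposited; per the file headers, Cell Ranger 7.2.0 wrote them. The submitters' processing notes list GRCm39 and Seurat with no role, and the annotation release is not given in the sources used here. The filters and the choice of cells are given at the opening of the results; the S phase limit was taken on the share of each cell's UMIs, 2.80 (MyoD-WT) and 2.01 (MyoD-KO) in 10000. The cells and gene lists were chosen with earlier results of these data known. Counts were summed per library and group, divided by the total (8054621 UMIs in MyoD-WT and 18905719 in MyoD-KO low-proliferation cells) and given per 1000000 (CPM) with exact 95% Poisson intervals, ratios with exact conditional intervals and shares with exact Clopper-Pearson intervals. With 1 library per clone no test was made. The 14 genes of the rule were left out of counts of genes. Thinning drew 5000 UMIs per cell with seed 1 and left out shallower cells. Scrublet in scanpy 1.11.5 marked 5 MyoD-WT cells (0.068%, too few to have worked) and 192 MyoD-KO cells (3.32%), and none was removed. On simulated data 100 of 100 genes raised 2.25-fold and 100 of 100 lowered as much were recovered in each library, of 25906 genes. The simulated sums held counting error only and no unevenness between cells. They check the calling steps and not the calls made on these cells.

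Genes named are the 4 markers, the genes of the rule, Myod1, Myf5, Myf6 and Pax3; the 12 highest and 12 lowest by the smaller of the libraries' log2 ratios among genes at 1.5-fold and 20 CPM in both; the 8 highest and 8 lowest between clones at 50 CPM; the 6 most different ratios in each direction; and up to 4 genes of each list, or more for lists that went both ways. Mitochondrial, ribosomal, numbered and sex-linked genes were left out of the ranked groups. Mt1, Mt2 and other genes outside these groups were chosen after their values were seen. Promoters came from a RefSeq table of GRCm38.p6 matched by symbol, a build other than that of the files, which hold no coordinates. Software was Python 3.11.15, numpy 2.4.6, scipy 1.17.1, pandas 2.3.3, R 4.3.3 and edgeR 4.0.16 (for TMM factors only).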

Additional observations from a re-analysis of the deposited data

Results flagged for a closer look

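Among the genes chosen by the naming rule and at 50 CPM or more in some group, 8 had counting intervals on opposite sides of a ratio of 1 in the 2 libraries and a ratio past 1.5-fold in at least 1 of them. With 1 library per clone these differences were not tested. The value given for each is the log2 ratio in MyoD-KO minus that in MyoD-WT. Cdkn1c gave -1.98, from ratios of 2.86 in MyoD-WT and 0.726 in MyoD-KO. Cpm, which encodes carboxypeptidase M, gave -2.06, from 2.09 and 0.5. St6galnac3, a sialyltransferase, gave -0.78, from 1.13 and 0.660. Myod1 gave 1.01, from 0.564 and 1.14. Prkg1, a cyclic GMP-dependent kinase, gave 2.95, from 0.208 and 1.61, and its levels were 59.2 against 285 CPM in MyoD-WT and 414 against 258 in MyoD-KO. Cadm2, an adhesion protein, gave 3.23, from 0.466 and 4.38. It had 23 UMIs in 18 MyoD-WT low-proliferation cells, and 10 MyoD-KO low-proliferation cells held 44.5% of its UMIs there. Slc22a23, a transporter, gave 2.41, from 0.792 and 4.20. Grem1 gave 6.87, from 0.364 and 42.5, and 97.6% of its UMIs in MyoD-KO low-proliferation cells lay in cells high in Spp1. In MyoD-WT low-proliferation cells Grem1 had 7 UMIs. Without cells at or above 1000 CPM of Spp1, the MyoD-KO ratio of Cdkn1c was 1.04, and that of Prkg1 was 1.62.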

How the results depend on the processing

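Results were recomputed under those of 19 settings that apply to each, of which leaving out high-Spp1 cells, leaving out cells with a Car9 UMI and taking the S phase limit by UMIs were chosen after seeing the data. Over 339 gene results, 3206 alternative values stayed within the counting interval of the main value, 948 moved out of it and 5 reversed. Only ratios past the call limits could count as reversed, so sign changes of smaller ratios are not among the 5. The MyoD-KO log2 ratio of Cdkn1c went from -0.46 to 0.06 without high-Spp1 cells. That of Myod1 went from 0.19 to -0.16 with no Car9 UMI. Of the 5, Bgn in MyoD-WT was at -0.12 on the log2 scale with at least 3 Pax7 UMIs. Without high-Spp1 cells, MyoD-KO ratios were -0.25 for Dcn, -0.066 for Nr4a1, -0.39 for Prl2c3 and -0.16 for Spp1, whose own level sets that filter. The cause was not tested for the others. The share of low-proliferation cells (MyoD-WT, then MyoD-KO) was 5.38% and 14.6% with no Mki67 or Top2a UMI, 10.5% and 28.2% with a limit of 1, 5.99% and 16.9% without the top 50% by S phase genes, 5.67% and 18.3% with at least 3 Pax7 UMIs, 5.69% and 19.7% with no Car9 UMI, and 8.99% and 23.8% with the S phase limit by UMIs; without high-Spp1 cells MyoD-KO was at 17.0%. With a minimum of 50 CPM, with no minimum and with a 2-fold limit, genes higher were 156, 3512 and 291 in MyoD-WT, 274, 3170 and 337 in MyoD-KO and 63, 1407 and 75 in both, and genes lower were 436, 5132 and 409, then 334, 4274 and 413, then 227, 2318 and 307. With at least 3 Pax7 UMIs 441 were higher in MyoD-KO and 134 in both, and without high-Spp1 cells 286 and 110. Higher genes were then 28.8% of those called in MyoD-KO, in place of 45.8%, and at 50 CPM 26.4% in MyoD-WT, in place of 37.5%. Between clones, genes higher in MyoD-KO were 499, 4903 and, at 1.5-fold, 2350, and genes lower were 130, 1857 and 1004. No paired analysis was possible because each clone is 1 library. The MyoD-KO Cdkn1c log2 ratio ran from -0.75 to 0.06 over the settings and the MyoD-WT one from 1.26 to 1.66. Genes under 10 CPM in both groups were not called at the main limits, so changes in rarer transcription factors are not among the main counts.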
